A study of Mus musculus with 6 samples.

Results

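VEGF ligands and their receptors were followed in 6 human tumour xenografts: the ligand genes VEGFA, VEGFB, VEGFC, FIGF (which encodes VEGF-D) and PGF (placental growth factor), the receptor tyrosine kinase genes FLT1 (VEGF receptor 1), KDR (VEGF receptor 2) and FLT4 (VEGF receptor 3), and the co-receptor genes NRP1 and NRP2. These 10 genes were taken by their symbols, as 10 of the 23284 rows of an expression table. Levels are in FPKM, sequenced fragments divided by transcript length and by the mapped total, a per-length scale on which different genes can be set side by side. Of the 10 genes, 7 reached a mean of at least 1 FPKM over the tumours and entered the test. FIGF, KDR and FLT4 did not.

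The tumours grew under the skin of athymic nude mice, which lack a thymus and mature T cells, from STS26T, a single human line of malignant peripheral nerve sheath tumour. Treatment began after 1 week of growth, once tumours could be felt. In the anti-ENG group (3 tumours) the mice received TRC105, an antibody to human endoglin (ENG), together with M1043, an antibody to the mouse protein. In the IgG control group (3 tumours) they received control immunoglobulin, and both groups were dosed at 10 mg/kg into the peritoneum 2 times a week for 3 weeks. The labels give no age for the hosts and no genotype beyond athymic nude. IgG control 2 and 3 carry the same code number with the letters L and R, as do anti-ENG 1 and 2. Whether each such pair shared an animal is not said, so they may not be independent. The p-values measure only the spread between these samples.

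VEGF ligands are secreted dimers that act mainly on endothelial cells. VEGFA binds the products of FLT1 and KDR, PGF and VEGFB bind that of FLT1, and VEGFC and VEGF-D act mainly through that of FLT4 on lymphatic vessels. KDR carries most of the growth and permeability signal in blood vessels, whereas FLT1 binds VEGFA tightly, signals weakly and is also made as a soluble form that traps ligand. Neuropilins have no kinase domain. They present VEGFs to the kinases and also serve as receptors for class 3 semaphorins, and many tumour cells make them. Endoglin is a co-receptor for TGF-beta family ligands on endothelium, and the comparison asks what blocking it on tumour and host cells does to tumour RNA.

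The values are of human genes. Host cells form the vessels of a xenograft, and their mouse RNA counts here only if it aligned to the human build. Mouse Flt1, Kdr and Vegfa were not measured separately. In bulk tumour RNA, fewer cells of a type and less RNA per cell cannot be told apart. Total depth is unknown. Relative depth, read from the lowest values, ran from 1 in IgG control 1 to 1.46 in anti-ENG 1. ENG itself had a mean of 29.0 ± 10.4 FPKM (SD, n = 3) with IgG, against 23.9 ± 7.39 FPKM (SD, n = 3) with anti-ENG, and the groups overlapped. Among 15 Schwann cell and nerve sheath markers, 8 stayed under 1 FPKM in all tumours, among them the defining genes S100B, SOX10 and ERBB3, while NES and PMP22 had means of 46.9 and 43.6 FPKM. Among 6 melanocyte markers, 4 stayed under 1 FPKM in all tumours, while MITF and MLANA reached 3.98 and 1.06 FPKM in their highest tumours.

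VEGFA led the family in every tumour. Its mean over the 6 tumours was 144 FPKM, at the 97.8th percentile of the 18915 genes above 0 in at least 1 tumour. NRP1 followed at 70.9, VEGFB at 36.8 and VEGFC at 20.98 FPKM. NRP2 and PGF came next at 11.98 and 11.8 FPKM, and FLT1 at 3.97 FPKM. FLT4, FIGF and KDR had means of 0.0748, 0.0302 and 0.0263 FPKM.

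The first steps of this order were clear of the spread between tumours. The lowest VEGFA value, 97.1 FPKM, lay above the highest NRP1 value of 90.4, and the ranges of NRP1 and VEGFB, and of VEGFB and VEGFC, did not overlap either. VEGFC stood above NRP2 within each of the 6 tumours although their ranges overlapped. NRP2 and PGF could not be ordered, since NRP2 was the higher in 3 tumours and PGF in the other 3. PGF stood above FLT1 in each of the 6 tumours. FLT1 stood 53.1-fold above FLT4 in its mean, and the order among FLT4, FIGF and KDR varied from tumour to tumour.

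**Figure D1:**
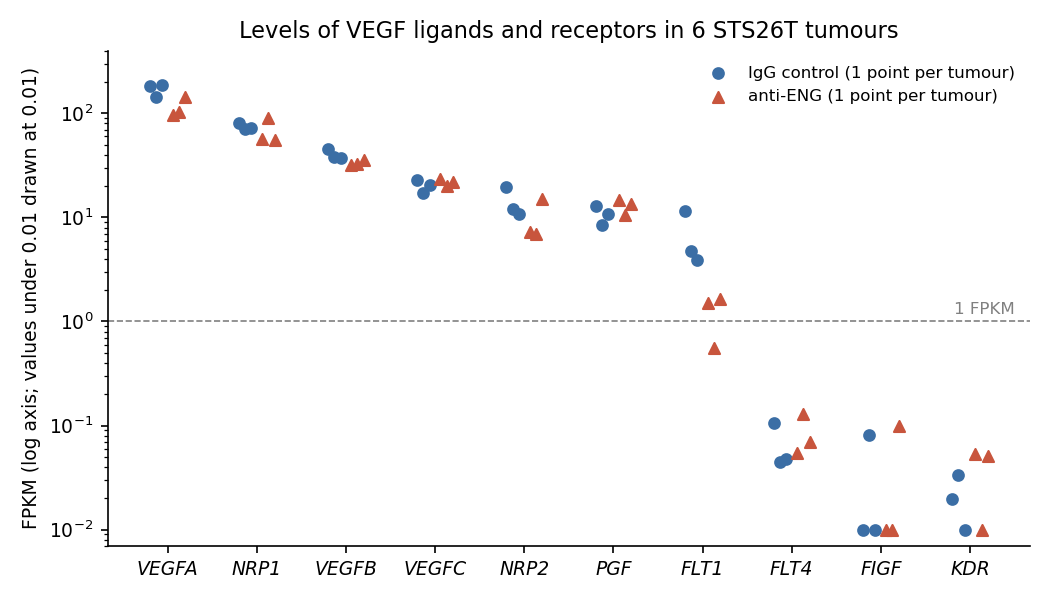
FPKM of each of the 10 genes in each tumour on a log axis, ordered by mean, with circles for the 3 IgG control and triangles for the 3 anti-ENG tumours. VEGFA lies between 97.1 and 189 FPKM, NRP1 between 55.4 and 90.4, and FLT4, FIGF and KDR all lie under 0.13 FPKM; values under 0.01 are drawn at 0.01.

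Against the IgG group, FLT1 and VEGFA had the smallest p-values of the 7 tested genes and lower means in the anti-ENG tumours, but neither passed the threshold. The test was limma on log2(FPKM + 1) over 12586 genes, two-sided, with Benjamini-Hochberg adjustment over all of them at 0.05. It called 0 genes in all, 0% of those tested, with a smallest adjusted p of 0.529 and 1154 genes (9.17%) at an unadjusted p under 0.05. Of the 7 tested genes, 5 had negative and 2 positive log2 fold changes, with a median of -0.26 beside a median of 0.0065 for all genes tested. At an unadjusted p under 0.05 there were 2 of the 7, both lower, where 3.61% of all genes tested were lower and 5.56% higher at that level. The groups did not overlap in 2 of the 7, FLT1 and VEGFB, both lower, where 6.75% of all genes tested lay apart in that direction and 17.3% in either. With 7 genes these counts are small.

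VEGFA, the ligand that drives most blood vessel growth, measured 184, 144 and 189 FPKM with IgG and 97.1, 104 and 145 FPKM with anti-ENG, in the order of tumours 1, 2 and 3. Anti-ENG 1 and 2, which share a code number, lay below every control. Anti-ENG 3 lay level with IgG control 2, so the groups overlapped by this pair alone. The IgG mean of 173 ± 24.9 FPKM (SD, n = 3) was 1.497 times the anti-ENG mean of 115 ± 25.9 FPKM (SD, n = 3). The log2 fold change of VEGFA was -0.59 (SE 0.19, 95% confidence interval -1.03 to -0.15, limma unadjusted p = 0.0152, adjusted p = 0.529), which placed it at rank 291 of the 12586 genes. The exact two-sided permutation p on FPKM was 0.2, where 0.1 is the smallest that 3 against 3 tumours can give.

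VEGFB, a ligand of FLT1 with little angiogenic activity of its own, measured 45.4, 38.3 and 36.9 FPKM with IgG and 32.0, 32.4 and 35.7 FPKM with anti-ENG, in the same order of tumours. All 3 anti-ENG tumours lay below all 3 controls, though by a narrow gap between anti-ENG 3 and IgG control 3. The log2 fold change of VEGFB was -0.26 (SE 0.12, 95% confidence interval -0.54 to 0.024, limma adjusted p = 0.531), and the exact permutation p was 0.1, the smallest possible. Without IgG control 1, the highest tumour, it was -0.17.

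The lymphatic ligand VEGFC had 22.8, 17.3 and 20.5 FPKM in the controls and 23.3, 20.2 and 21.8 FPKM in the anti-ENG tumours, in the order 1, 2 and 3. These values were interleaved and kept within a 1.35-fold range. Its log2 fold change was 0.11 with a 95% confidence interval from -0.19 to 0.42 (limma adjusted p = 0.757), and -0.0027 with each tumour rescaled to the same sum of FPKM. PGF, which signals through FLT1, had 12.9, 8.46 and 10.9 FPKM in the controls and 14.55, 10.5 and 13.5 FPKM in the anti-ENG tumours. The PGF groups overlapped as well, with a log2 fold change of 0.24 and a 95% confidence interval from -0.18 to 0.67 (limma adjusted p = 0.633). Leaving out IgG control 2, the lowest tumour for both genes, gave 0.095 for PGF and 0.011 for VEGFC, and leaving out IgG control 1 gave 0.37 and 0.20. VEGFC and PGF ordered the tumours almost alike: anti-ENG 1 was highest and IgG control 2 lowest for both. FIGF was listed at 0.0810 FPKM in IgG control 2 and 0.0999507 in anti-ENG 3, at 0 in IgG control 3 and at under 0.001 in the other 3 tumours, so it lay at or near 0 in 4 of the 6 tumours.

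The make-up of the ligand RNA was also set side by side for the tumours. VEGFA made up 69.5, 69.2 and 73.5% of the summed FPKM of the 5 ligands in IgG control 1, 2 and 3 and 58.2, 62.2 and 67.1% in anti-ENG 1, 2 and 3. No anti-ENG tumour reached the lowest control in this share. VEGFC made up 7.95 to 8.57% in the controls and 10.1 to 14.0% in the anti-ENG tumours, and PGF 4.07 to 4.88% and 6.26 to 8.71%. VEGFB overlapped between the groups, at 14.3 to 18.4% and 16.5 to 19.4%. The ratio of VEGFA to PGF was 14.2, 17.0 and 17.4 in the controls and 6.68, 9.89 and 10.7 in the anti-ENG tumours. These shares and ratios combine genes that were chosen together and were not tested. A lower VEGFA raises the other shares, so they in part restate the VEGFA values above. The FPKM of VEGFA, VEGFC and PGF each overlapped between the groups. The summed ligand level was 208 to 265 FPKM in the controls and 167 to 216 FPKM in the anti-ENG tumours, which overlapped.

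**Figure D2:**
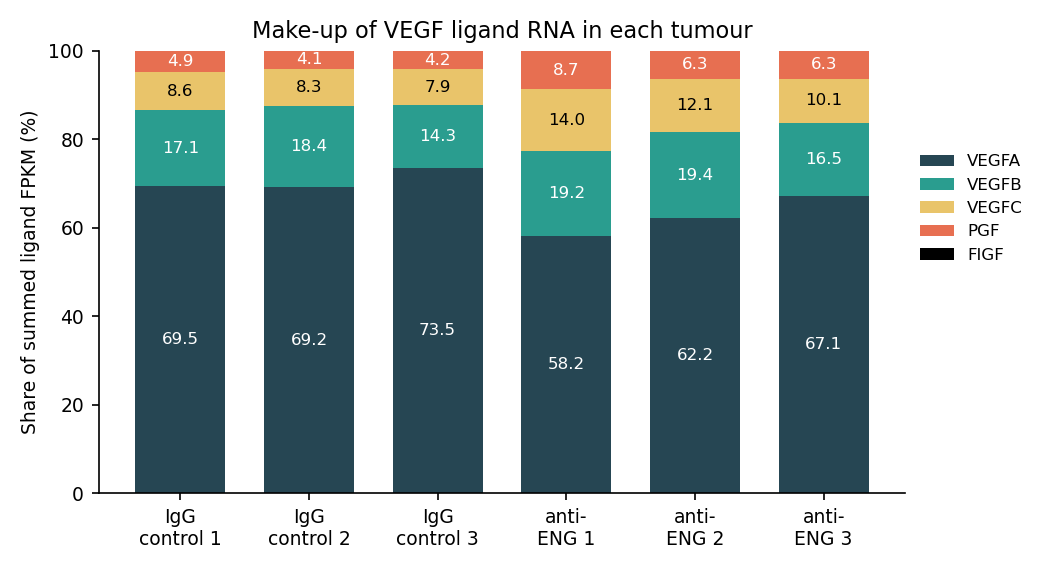
Share of each ligand in the summed FPKM of VEGFA, VEGFB, VEGFC, PGF and FIGF, 1 bar per tumour. VEGFA takes 69.2 to 73.5% in the IgG control tumours and 58.2 to 67.1% in the anti-ENG tumours; FIGF is too low to be seen.

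FLT1, the receptor that VEGFA, VEGFB and PGF share, had the largest difference of the 7 tested genes. It measured 11.5, 4.74 and 3.92 FPKM with IgG and 1.52, 0.561 and 1.64 FPKM with anti-ENG, in the order of tumours 1, 2 and 3. Every anti-ENG tumour lay below every control, and IgG control 1 stood far above the other controls. The IgG mean of 6.70 ± 4.13 FPKM (SD, n = 3) was 5.41 times the anti-ENG mean of 1.24 ± 0.590 FPKM (SD, n = 3). The log2 fold change of FLT1 was -1.69 (SE 0.37, 95% confidence interval -2.57 to -0.82, limma unadjusted p = 0.00235, adjusted p = 0.529), at rank 32 of the 12586 genes. On the log2(FPKM + 1) scale this is a 3.24-fold difference, since the added 1 FPKM shrinks changes of low genes. The exact permutation p was 0.1, the smallest possible. Without IgG control 1 the log2 fold change was -1.28, and over all alternatives it ran from -2.30 to -1.28. FLT1 was also among the more variable genes, with a residual SD at the 95.1th percentile of those tested. The table has 1 value per gene, so the soluble and the membrane form of FLT1 were not separated.

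KDR and FLT4, the other VEGF receptor kinases, lay close to 0 as human RNA. KDR measured 0.0195, 0.0332 and 0 FPKM with IgG and 0.0535, 0 and 0.0514 FPKM with anti-ENG. Multiplied by relative depth, the values above 0 stood to each other as 1, 2, 4 and 3, within 0.1%, the pattern of a few whole fragments. FLT4 had 0.105, 0.0446 and 0.0479 FPKM in the controls and 0.0540, 0.128 and 0.0690 FPKM in the anti-ENG tumours, which in the same way stood as 4, 2, 2, 3, 6 and 3. At values this low no difference between the groups was detectable. FLT1 accounted for 98.4 to 98.9% of the summed FPKM of the 3 kinase genes in the controls and for 81.4 to 93.4% in the anti-ENG tumours.

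NRP1, the more abundant neuropilin, measured 81.4, 70.1 and 71.7 FPKM with IgG and 56.5, 90.4 and 55.4 FPKM with anti-ENG. The anti-ENG tumours lay on both sides of the controls, with anti-ENG 2 the highest of all 6. Its log2 fold change was -0.17 (95% confidence interval -0.64 to 0.29, limma adjusted p = 0.754), and ran from -0.40 without anti-ENG 2 to -0.053 without anti-ENG 3. NRP2, which pairs with FLT4 for the lymphatic ligands, had 19.7, 12.05 and 10.7 FPKM in the controls and 7.27, 7.004 and 15.2 FPKM in the anti-ENG tumours. Here anti-ENG 1 and 2, which share a code number, lay below all controls and anti-ENG 3 above 2 of them. The log2 fold change of NRP2 was -0.52 (95% confidence interval -1.27 to 0.23, limma adjusted p = 0.583), -0.85 without anti-ENG 3 and -0.27 without IgG control 1. The ratio of NRP1 to NRP2 ran from 4.14 to 6.70 in the controls and from 3.65 to 12.9 in the anti-ENG tumours.

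**Figure D3:**
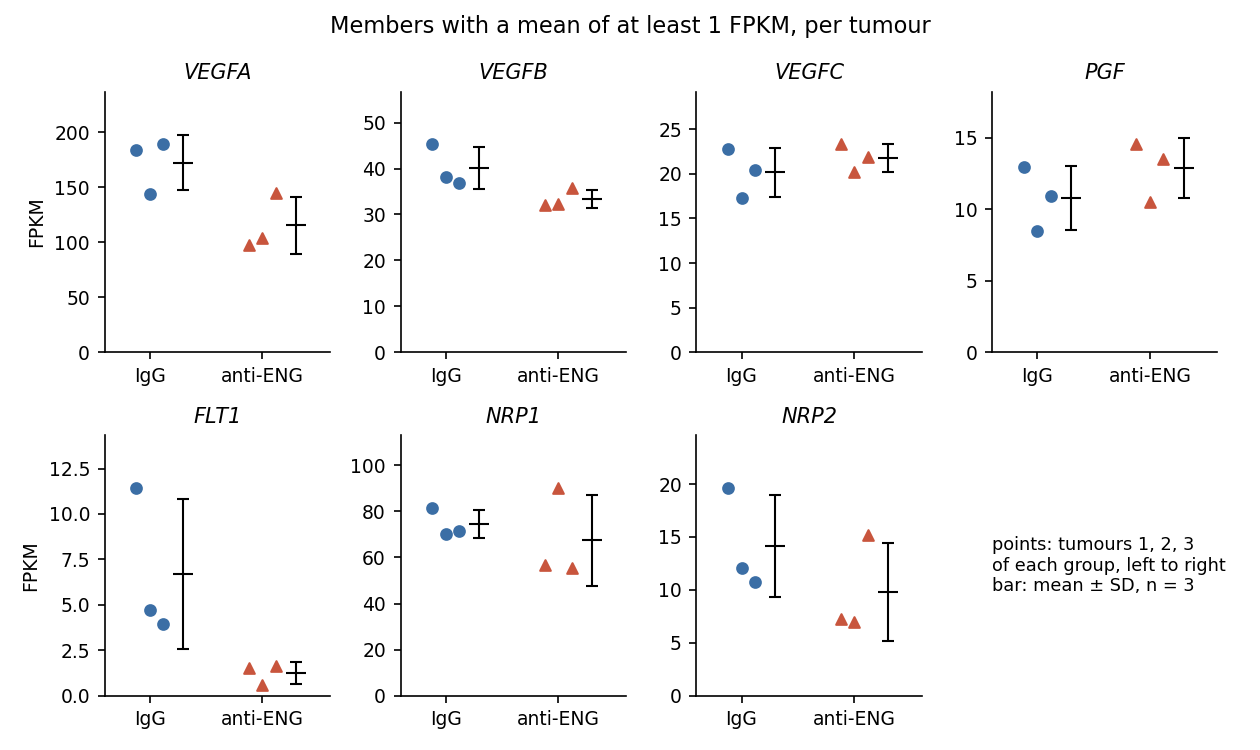
FPKM of the 7 tested genes in each tumour, with points for tumours 1, 2 and 3 of each group from left to right and bars for mean ± SD (n = 3). The anti-ENG points lie below all IgG control points for FLT1 (0.561 to 1.64 against 3.92 to 11.5 FPKM) and VEGFB (32.0 to 35.7 against 36.9 to 45.4 FPKM), and the groups overlap for the other 5 genes.

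VEGFA and PGF outweighed FLT1 further under anti-ENG than under IgG. The ratio of VEGFA to FLT1 was 16.1, 30.4 and 48.3 in IgG control 1, 2 and 3 and 63.9, 185 and 88.5 in anti-ENG 1, 2 and 3. The ratio of PGF to FLT1 was 1.13, 1.79 and 2.78 in the controls and 9.57, 18.7 and 8.26 in the anti-ENG tumours. Both ratios lay apart between the groups, again without a test, since they restate the FLT1 values above.

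**Figure D4:**
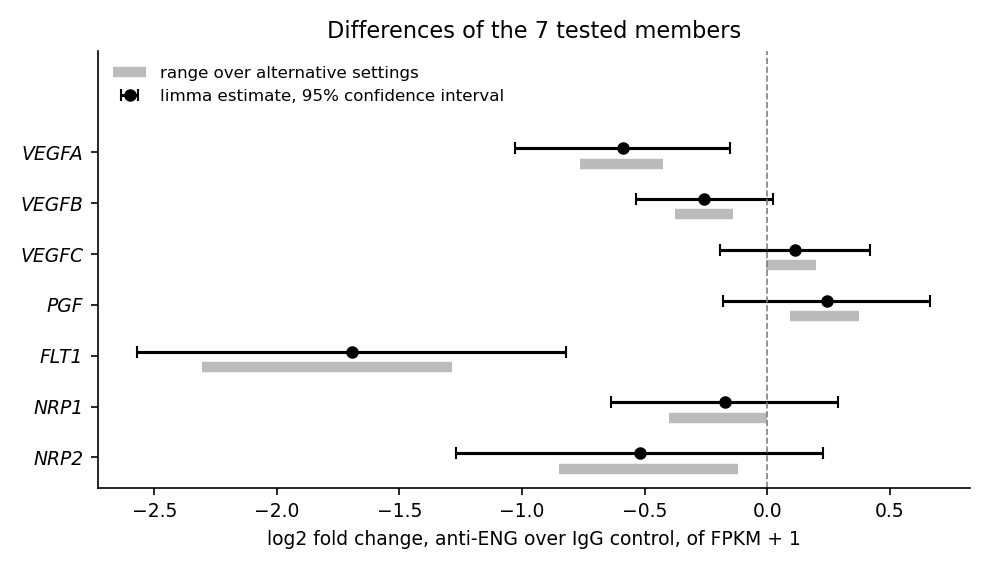
Log2 fold change of the 7 tested genes, anti-ENG over IgG control, on log2(FPKM + 1), with limma's 95% confidence interval as a black bar and the range over the alternative settings as a grey bar. The intervals of FLT1 (-2.57 to -0.82) and VEGFA (-1.03 to -0.15) stay below 0 and those of the other 5 genes include 0; none passed after adjustment over all genes.

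Markers of cells that carry VEGF receptors were set beside these values. Here and below, genes whose groups lay apart are to be read beside the 17.3% of all genes tested for which they did. Of 24 endothelial markers besides the VEGF receptors, 17 stayed under 1 FPKM in all tumours, among them CDH5, VWF, TIE1, ERG, CLDN5 and EMCN, and MMRN1 and SOX17 were listed at 0 throughout. Their summed level was 22.9 to 29.9 FPKM in the controls and 20.3 to 29.4 FPKM in the anti-ENG tumours, and RASIP1 held the largest part. Of the 7 tested, 4 had positive and 3 negative log2 fold changes with a median of 0.071, and 0 passed the threshold. Their median was -0.0031 with equal sums of FPKM and ran from -0.26 to 0.25 as each tumour was left out. ECSCR, an endothelial surface protein, had a log2 fold change of 0.58, ROBO4 one of 0.24, RASIP1 one of -0.21 and the adhesion receptor GPR116 one of -0.41, the 1 of the 7 whose groups lay apart. ECSCR passed the filter only through the anti-ENG tumours (means of 0.820 FPKM with IgG and 1.79 with anti-ENG). GPR116 passed only through the controls (1.48 with IgG and 0.908 with anti-ENG), so neither difference is independent of the filter. Of 14 monocyte and macrophage markers, cells in which FLT1 is also known, 10 stayed under 1 FPKM, and MARCO and MRC1 were at 0. Their sum was 64.0 to 123 FPKM in the controls and 75.5 to 103 FPKM in the anti-ENG tumours, most of it the lysosomal gene CD68. Of 5 lymphatic markers, PROX1, LYVE1 and CCL21 stayed under 1 FPKM in all tumours. The 2 tested, RELN and PDPN, had log2 fold changes of 0.91 and 0.63, and 0 passed the threshold. The groups lay apart for RELN but overlapped for PDPN, for which IgG control 1 was the highest tumour at 10.1 FPKM.

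Of 12 fibroblast markers 11 were tested, and 10 had negative log2 fold changes and 1 a positive one, with a median of -0.83 and 0 past the threshold. The median was -0.43 without anti-ENG 1 and -0.18 without both this tumour and IgG control 1. Only PI16 stayed under 1 FPKM, none was at 0, and their sum was 877 to 1600.1 FPKM in the controls and 391 to 984 FPKM in the anti-ENG tumours, which overlapped. POSTN, the matrix protein periostin, had 28.6, 31.6 and 22.7 FPKM in the controls and 16.7, 13.02 and 8.71 FPKM in the anti-ENG tumours, a log2 fold change of -1.08 (limma adjusted p = 0.529). DCN, SFRP2 and LUM had -1.45, -1.30 and -1.35, but the groups overlapped for each (limma adjusted p = 0.529). DCN and LUM were highest in IgG control 2, at 48.5 and 33.5 FPKM, and anti-ENG 3 lay above IgG control 1 for both. For SFRP2, IgG control 1 lay within the range of the anti-ENG tumours. Of 9 tested pericyte and smooth muscle genes, 7 had negative and 2 positive values (median -0.18, 0 past the threshold, between -0.50 and -0.0024 as each tumour was left out, and 0.19 with tumour 1 of both groups left out). PDGFRB, the PDGF receptor of pericytes and fibroblasts, had a log2 fold change of -0.94 and its groups lay apart, while NOTCH3 had -0.57, ANPEP -0.69 and RGS5 0.25. Of the 13 pericyte genes DES, KCNJ8 and MYH11 stayed under 1 FPKM and KCNJ8 was at 0, and the sum was 181 to 321 FPKM in the controls and 108 to 217 FPKM in the anti-ENG tumours. The implanted human cells were a single line, and mouse RNA counts here only if it aligned to the human build. These marker values are therefore not counts of host cells. The part of these cell types in the VEGFA and FLT1 values was not tested.

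Hypoxia is the classical inducer of VEGFA, through the factors HIF1A and EPAS1, which the VHL ubiquitin ligase destroys in oxygen. Of 30 hypoxia response genes besides VEGFA, all tested, 14 had positive and 16 negative log2 fold changes (median -0.027), and 0 passed the threshold. As each tumour was left out, this median ran from -0.13 without anti-ENG 3 to 0.15 without anti-ENG 2. ENO1, a glycolytic enzyme, had 777, 725 and 778 FPKM in the controls and 1227, 880.5 and 1010 FPKM in the anti-ENG tumours, a log2 fold change of 0.44 with the groups apart (limma adjusted p = 0.529). PGK1, also glycolytic, had 0.36, EGLN3, an oxygen-sensing prolyl hydroxylase, 0.44, and the glucose transporter SLC2A3 -0.48, with its groups apart. Of the 30, only ENO1 lay apart higher and only SLC2A3 lower, where 10.6% and 6.75% of all genes tested did so in those directions. VEGFA had the direction of the 16 genes with negative values and the opposite of the 14 with positive ones. The part of hypoxia in the VEGFA values was not tested.

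Of 20 tested genes of oxygen sensing and of VEGFA transcription, 8 had positive and 12 negative values (median -0.058, 0 past the threshold). TCEB1, which encodes elongin C of the VHL ligase, had 36.8, 36.3 and 39.1 FPKM in the controls and 61.5, 46.7 and 52.1 FPKM in the anti-ENG tumours, a log2 fold change of 0.50 with the groups apart (limma adjusted p = 0.529). SP1, a factor that binds GC-rich promoters such as that of VEGFA, had 17.1, 15.8 and 15.8 FPKM in the controls and 12.3, 13.9 and 12.5 FPKM in the anti-ENG tumours, a log2 fold change of -0.31, also apart. The co-activator gene CREBBP had -0.34. Of the 20, 2 lay apart higher and 2 lower, where 10.6% and 6.75% of all genes tested did so in those directions. HIF1A, added here after its values were seen because of its role, had 94.0, 58.5 and 57.2 FPKM in the controls and 57.0, 63.9 and 58.9 FPKM in the anti-ENG tumours, alike except for IgG control 1.

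Regulators of VEGFA mRNA split evenly, 7 with positive and 7 with negative values (median 0.0062, 0 past the threshold). This median was -0.010 to -0.11 under the rescaled and normalized settings. ZFP36, which promotes decay of AU-rich mRNAs including VEGFA, had 9.63, 6.39 and 5.62 FPKM in the controls and 3.02, 4.58 and 5.29 FPKM in the anti-ENG tumours, a log2 fold change of -0.63 with the groups apart (limma adjusted p = 0.529). The splicing regulators CLK1 and SRSF2 had -0.18 and 0.13, and ZFP36L1, a relative of ZFP36, had -0.19. Of the 14, SRSF2 lay apart higher and ZFP36 lower, where 10.6% and 6.75% of all genes tested did so in those directions.

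Genes that process, release or bind VEGF ligands outside the cell had negative values in 14 and positive values in 5 of 19 tested (median -0.086, 0 past the threshold). ADAMTS1, a protease whose product binds VEGFA, had 0.636, 0.886 and 0.510 FPKM in the controls and 1.59, 1.80 and 1.45 FPKM in the anti-ENG tumours, a log2 fold change of 0.64 with the groups apart (limma adjusted p = 0.529). ADAMTS1 passed the filter only through the anti-ENG tumours, with means of 0.677 FPKM with IgG and 1.61 FPKM with anti-ENG. Its difference is thus not independent of the filter, and its values lie near the floor. The heparan sulfate proteoglycan genes SDC1 and SDC2 had 0.37 and 0.35, and the fibronectin gene FN1 had -0.45. The median of this list was 0.077 without anti-ENG 1.

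Of 34 tested signalling genes downstream of VEGF receptors, 15 had positive and 19 negative log2 fold changes, with a median of -0.022 (-0.13 with equal sums of FPKM) and 0 past the threshold. The groups lay apart in 0 of the 34, against 17.3% of all genes tested. The adaptor gene SHC1 had -0.41, the small GTPase gene CDC42 0.31, the PI3-kinase gene PIK3CB 0.25 and the stress kinase gene MAPKAPK2 -0.23. Of 24 tested regulators of receptor activity and traffic, 9 had positive and 15 negative values (median -0.098, 0 past the threshold). CBLB, a ubiquitin ligase, the phosphatase gene PTPN1 and the endocytic gene EPN2 had -0.31, -0.26 and -0.29, and the feedback inhibitor SPRY1 had -0.49. Groups lay apart in 3 of the 24, those of CBLB, PTPN1 and EPN2, all lower. Of all genes tested, 6.75% lay apart in that direction and 17.3% in either.

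Of 9 tested neuropilin partners, 3 had positive and 6 negative values (median -0.19, or -0.071 without anti-ENG 1, 0 past the threshold). The semaphorin receptor genes PLXND1, PLXNA1 and PLXNA3 had -0.53, -0.37 and -0.19, and L1CAM, an adhesion molecule that binds NRP1, had -0.78. PLXND1 was low in 1 tumour, anti-ENG 1, at 3.90 FPKM, with 10.8 to 13.1 FPKM in the other 5. Of 21 tested secreted angiogenic and anti-angiogenic factors besides the VEGFs, 6 had positive and 15 negative values, with a median of -0.44 and 0 past the threshold. THBS2, the angiogenesis inhibitor thrombospondin-2, had 13.2, 7.16 and 5.99 FPKM in the controls and 4.55, 2.98 and 2.23 FPKM in the anti-ENG tumours, a log2 fold change of -1.17 (limma adjusted p = 0.529). TIMP2, an inhibitor of metalloproteases, had -0.49, VASH1, an inhibitor of angiogenesis, -0.44, and the growth factor gene PDGFC 0.38. Of the 21, groups lay apart for THBS2 and TIMP2 lower and for PDGFC higher, where 6.75% and 10.6% of all genes tested did so in those directions. Leaving out IgG control 1 gave this list a median of -0.078, and leaving out anti-ENG 1 gave -0.21.

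**Figure D5:**
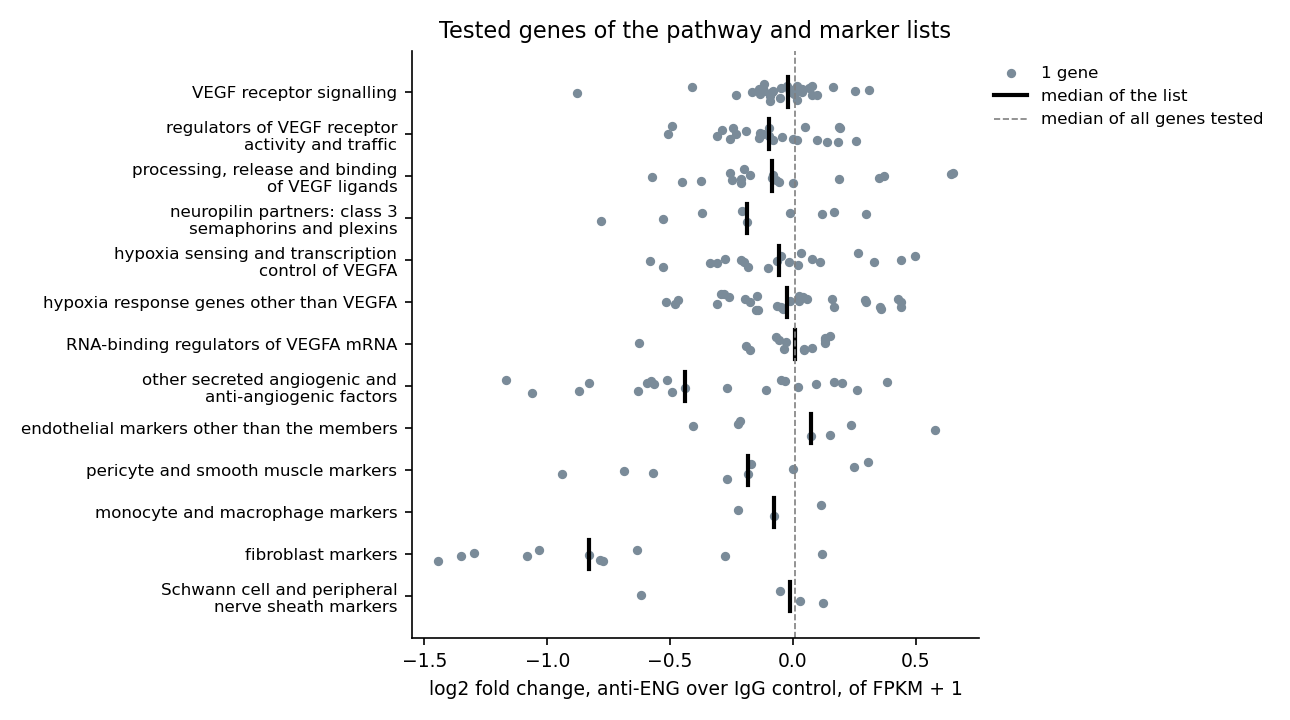
Log2 fold change on log2(FPKM + 1), anti-ENG over IgG control, of each tested gene in the 13 lists with at least 3 tested genes, with a black bar at each list's median and a dashed line at the median of all genes tested (0.0065). The medians lie between -0.19 and 0.071 except for secreted angiogenic and anti-angiogenic factors (-0.44) and fibroblast markers (-0.83).

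The tested genes whose levels followed FLT1 and VEGFA most closely over the 6 tumours were ranked by Pearson's r of log2(FPKM + 1). The points are the same 6 tumours in every case, and the names are a description. Since the genes were picked by this r, a like order of the tumours follows from the choice. For FLT1 they were MKLN1 (r = 0.998), the glutamate transporter gene SLC1A3 (r = 0.9747), ZNF394 (r = 0.970), RAD54L2 (r = 0.969) and the prohormone convertase gene PCSK1 (r = 0.967). PCSK1 had 6.06, 1.92 and 1.96 FPKM in the controls and 1.06, 0.462 and 1.43 FPKM in the anti-ENG tumours, with the same high tumour, IgG control 1, and the same lowest one, anti-ENG 2, as FLT1. For VEGFA they were SLC35B4 (r = 0.991), DISC1 (r = 0.991), LYL1 (r = 0.988), the Golgi matrix gene GOLGA3 (r = 0.986) and CDK11A (r = 0.985), whose reads may be shared with its near-identical copy CDK11B. DISC1 had 3.60, 2.84 and 3.56 FPKM in the controls and 2.24, 2.22 and 3.03 FPKM in the anti-ENG tumours, and so placed anti-ENG 3 above IgG control 2 as VEGFA did. In the anti-ENG tumours PCSK1 and LYL1 lay near the filter of 1 FPKM, so their group differences are not independent of it.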

How the data were processed

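Polyadenylated RNA of 6 tumours was sequenced, and the authors deposited 1 table of FPKM values with a column per tumour. Per the submitters' processing notes, the tools named include TopHat2 2.0.10, Bowtie 1.0.0, Cuffnorm and Cufflinks 2.2.1, with build GRCh37 (hg19) of the human genome. Not given in the sources used here are Cuffnorm's scaling, the annotation and the handling of mouse reads. Per the labels, the protocols name a pair of library kits, 1 of them stranded, and a pair of instruments without tying them to samples, so any difference of kit or instrument between the groups cannot be told apart from treatment, and strand use is unknown. FPKM is not a count, so no count test was run.

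Groups and replicate numbers came from the titles. The test was limma (version 3.58.1, R 4.3.3) with a trended variance, applied to log2(FPKM + 1) without covariates where a gene averaged 1 FPKM or more. Single members were also compared by exact permutation of FPKM. The limma fit was first tested on simulated data with independent tumours and no filter, which cannot show how it behaves if tumours share an animal. The 19 alternatives changed the pseudocount, filter, scaling, variance model, weights, block and tumours used. All 10 members, ENG, up to 4 genes of smallest p per list and the 5 genes most like FLT1 and VEGFA were named by rule. The members and the 15 lists (289 entries, of which SILV was not matched) were chosen with earlier results of these data known. Human sequences and coordinates were not used here.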

Additional observations from a re-analysis of the deposited data

How the results depend on the processing

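Under all 19 alternatives 0 genes passed the adjusted threshold, so none of the 7 tested members changed its call. VEGFA ran from -0.76 to -0.43, VEGFB from -0.37 to -0.14, PGF from 0.095 to 0.37, FLT1 from -2.30 to -1.28 (in 18 alternatives, as it is under the minimum of 5 FPKM), NRP2 from -0.85 to -0.12 and NRP1 from -0.40 to -0.001. VEGFC turned from 0.11 to -0.0027 with equal sums of FPKM, a setting that moved the median of all genes to -0.10. Leaving out 1 tumour each moved FLT1 between -1.95 and -1.28 and VEGFA between -0.76 and -0.48. With tumours of the same code number averaged, FLT1 was -1.81 and VEGFA -0.54. Genes at an unadjusted p under 0.05 numbered 1154, and between 661 (without IgG control 2) and 1564 (without anti-ENG 2) as each tumour was left out. Same-numbered tumours of the 2 groups deviated together with correlations of -0.33, 0.19 and 0.037 across genes, and IgG control 1 correlated best with anti-ENG 3 (0.35), so the numbers were not taken as pairs. With the replicate block the adjusted count stayed 0 and the unadjusted count was 842. FLT1 stayed at -1.69 (limma adjusted p = 0.641), which the balanced layout fixes in advance. The block, the filter and the variance model change p-values but cannot move a gene's fold change, so the ranges rest on the other settings. Without both IgG control 1 and anti-ENG 1, FLT1 was -1.39, VEGFA -0.43, NRP2 -0.12 and the fibroblast median -0.18, against -0.83; the cause was not tested. Depth limits KDR and FLT4, which rest on a few fragments, and FIGF was too low to be compared.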
